A study of Homo sapiens with 24 samples.

Results

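Divergent transcripts are long noncoding RNAs that start close to the promoter of a protein-coding gene and run away from it on the other strand. The approved symbols of some of them carry the name of that gene followed by -DT. The -DT transcripts described here were chosen by symbol and by depth, as every symbol ending in -DT with a summed count of at least 240 over the 24 libraries. This left 94 of the 133 -DT symbols in the count data, out of 60641 symbols in all. Of the 39 symbols below the minimum, 5 had no count in any library. The summed counts of the transcripts just inside the minimum were 243 (KDM2B-DT) and 257 (CPEB2-DT), and those just outside were 203 (DLX2-DT) and 227 (MAPK6-DT). Because the summed count chose the transcripts, their levels are given as a description. Each was compared with its coding gene, whose symbol precedes -DT, and all 94 coding genes were in the data.

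Many promoters of coding genes recruit RNA polymerase II in both directions. The upstream RNA is usually short-lived, because early polyadenylation signals end it and the nuclear exosome degrades it, whereas binding of U1 snRNP to 5′ splice sites protects the coding transcript from early termination. Some upstream RNAs are spliced and stable enough to be annotated as genes, and some of these carry a -DT symbol.

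The libraries were made from A549, a lung adenocarcinoma line, and HCT116, a colorectal carcinoma line. In A549 the groups were a CRISPR/Cas9 knockout (KO) of the DNA-binding domain of the transcript MSTRG.2513.6, the same kind of KO of MSTRG.4401.1, and wild type (WT B). In HCT116 both of these transcripts and also MSTRG.34636.7 had been knocked out, and there were 2 wild types (WT A and WT B), which gave 8 groups of 3 libraries. The labels give no clone, culture or passage, so p-values measure only the spread between these libraries, and the knocked-out transcripts themselves were not analysed here. Libraries of MSTRG.34636.7 KO and WT A were numbered 1A to 3A and were compared with each other, and the other KOs were compared with WT B of their line.

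The median total count per group ranged from 26238018 (A549 MSTRG.4401.1 KO) to 91653747 (HCT116 MSTRG.34636.7 KO). Under the label HCT116 MSTRG.2513.6 KO, the libraries S8 and S9 resembled A549, and the third, S11, did not. Their summed level of 8 A549 markers was 13469 and 13574 CPM (counts scaled to the same library total), against 9871 to 14465 CPM in the A549 libraries and 7.69 to 18.9 CPM in the other HCT116 libraries. Over the -DT transcripts, r of the log-scaled levels of S8 or S9 was 0.913 to 0.984 with A549 libraries and 0.815 to 0.859 with other HCT116 libraries. Results that use these libraries say so, and without them the group holds S11 alone. Lineage markers of lung were near 0 in A549 (3.70 to 7.71 CPM summed over 6 genes). Their sum in the other HCT116 libraries was similar, at 3.74 to 8.997 CPM. Markers of colon summed to 133 to 272 CPM over 9 genes in the other HCT116 libraries and to 8.52 to 26.4 CPM in A549. Most of the colon sum in HCT116 WT B was EPCAM. Of 6 colon markers tested between A549 WT B and HCT116 WT B, 3 were higher in A549 and 3 lower, at the thresholds given below.

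Annotation (GENCODE v44, hg38) was found for both genes of 91 pairs, and in all 91 the -DT transcript lay on the strand opposite to its coding gene. Between the starts of the canonical transcripts, the -DT start was upstream of the coding start in 83 pairs, with a median of 169 bases over all 91. The starts were within 300 bases of each other, in either direction, in 58 pairs and within 1000 bases in 79. In 33 pairs the gene bodies overlapped. Among transcripts named below, these include ITGB1-DT, LRRK2-DT, GARS1-DT, CTBP1-DT, MMADHC-DT, MAP3K2-DT, FAM111A-DT, RELA-DT, LYPLAL1-DT and APCDD1L-DT. The libraries were made with a strand-specific kit, but the use of the strand in counting is not given in the sources used here, so counts of these overlapping pairs are uncertain.

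**Figure D1:**
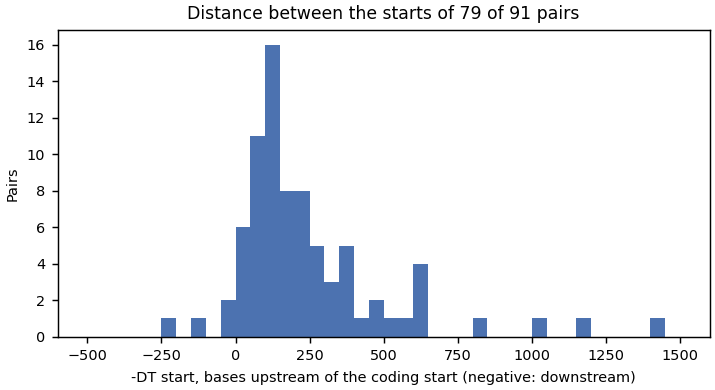
Histogram of the distance between the starts of each -DT transcript and its coding gene, in bins of 50 bases, with the number of pairs on the vertical axis. It shows the 79 of 91 pairs whose -DT start lies between 500 bases downstream and 1500 bases upstream of the coding start, 58 of them within 300 bases.

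The promoters of these pairs were rich in CpG. In windows from 250 bases before to 50 bases after the canonical start, the coding partners had a median GC content of 68.8% and a median of 32 CpG, and all protein-coding genes had 63.7% and 23. The motif GGGCGG, the GC box, was present on either strand in 80.4% of 92 partner windows and in 61.3% of 20046 windows of all protein-coding genes. TATAAA was present in 4.35% and 9.71%, and CCAAT in 35.9% and 36.1%, in the same order. The polyadenylation signal AATAAA was sought on the sense strand in the first 1000 bases of genomic sequence after the start. It was present for 31.9% of 91 -DT transcripts, 15.2% of partners, 21.5% of all protein-coding genes and 43.8% of all lncRNA genes. Within pairs AATAAA was more frequent on the -DT side in 26 pairs and on the coding side in 8. The 5′ splice-site-like motif GGTAAG was more frequent on the -DT side in 16 pairs and on the coding side in 19. These are counts of letters, not of sites in use.

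The 250 bases before the coding start are shown for pairs that the results below turn on, read 5′ to 3′ on the strand of the coding gene from hg38. Capitals mark GGGCGG or its reverse complement CCGCCC, and CCAAT or its reverse complement ATTGG. For NUP50, MRPS30, RELA and GMDS the window also holds the start of the -DT transcript, which lies 144, 170, 72 and 131 bases before the coding start, and for EPB41L4A the -DT start lies 306 bases before it. The windows are chr22:45163675-45163924 (plus strand), chr5:44808697-44808946 (plus), chr11:65662917-65663166 (minus), chr6:2245606-2245855 (minus) and chr5:112419278-112419527 (minus), in the order shown.
NUP50: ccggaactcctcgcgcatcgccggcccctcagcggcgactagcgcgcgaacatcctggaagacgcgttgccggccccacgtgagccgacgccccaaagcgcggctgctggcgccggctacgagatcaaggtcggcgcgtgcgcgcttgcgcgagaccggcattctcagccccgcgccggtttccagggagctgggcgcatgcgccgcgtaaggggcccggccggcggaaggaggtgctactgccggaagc
MRPS30: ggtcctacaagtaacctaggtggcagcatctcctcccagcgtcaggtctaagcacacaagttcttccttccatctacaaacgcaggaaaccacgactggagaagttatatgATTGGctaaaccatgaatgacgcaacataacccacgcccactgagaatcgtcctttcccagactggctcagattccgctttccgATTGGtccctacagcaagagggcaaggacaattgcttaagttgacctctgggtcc
RELA: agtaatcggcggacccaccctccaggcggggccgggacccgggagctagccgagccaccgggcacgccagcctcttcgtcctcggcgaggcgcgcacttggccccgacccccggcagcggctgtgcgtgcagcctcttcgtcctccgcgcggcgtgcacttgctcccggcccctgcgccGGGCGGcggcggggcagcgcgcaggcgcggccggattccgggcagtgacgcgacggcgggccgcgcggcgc
GMDS: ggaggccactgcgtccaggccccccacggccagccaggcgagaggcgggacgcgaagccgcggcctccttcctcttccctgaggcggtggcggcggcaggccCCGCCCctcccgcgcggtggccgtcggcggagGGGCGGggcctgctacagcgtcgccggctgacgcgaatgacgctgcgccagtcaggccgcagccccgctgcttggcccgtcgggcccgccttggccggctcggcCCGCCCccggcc
EPB41L4A: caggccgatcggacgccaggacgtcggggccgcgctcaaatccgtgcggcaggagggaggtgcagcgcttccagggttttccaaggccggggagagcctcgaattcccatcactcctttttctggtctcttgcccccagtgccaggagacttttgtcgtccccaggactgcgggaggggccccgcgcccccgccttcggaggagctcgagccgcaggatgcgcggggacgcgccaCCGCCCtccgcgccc
The MRPS30 window had the lowest GC content of the 5 (50.4%, with 8 CpG), no GC box and 2 CCAAT motifs. The NUP50 window had 40 CpG with neither motif, and the GMDS window had 3 GC boxes.

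Most -DT transcripts were rare. Their mean level over the 24 libraries ranged from 0.184 to 63.6 CPM with a median of 1.22 CPM, and 42 of 94 were below 1 CPM. The 6 most abundant made up 44.5% of the summed level. They were GARS1-DT (63.6 CPM), RAB30-DT (31.4), BAIAP2-DT (24.8), CTBP1-DT (21.99), NIPBL-DT (17.6) and GMDS-DT (15.4). Their partners encode glycyl-tRNA synthetase, a Golgi GTPase, an actin regulator, a transcriptional corepressor, the cohesin loader and an enzyme of GDP-fucose synthesis. The canonical GARS1-DT start lies 32053 bases upstream of that of GARS1, and these gene bodies overlap by 14754 bases. CTBP1-DT overlaps CTBP1 by 1457 bases. Per kilobase of annotated exon, the median ratio of the -DT level to the partner level was 8.09% over 90 pairs in A549 WT B and 8.44% over 91 pairs in HCT116 WT B. RAB30-DT and MAP3K2-DT were above their partners per kilobase in each of the 3 wild types. For MAP3K2-DT the ratio rests on a low partner level. MAP3K2 was at 0.060, 0.081 and 0.039 CPM per kilobase in A549 WT B, HCT116 WT B and HCT116 WT A. RAB30-DT reached 4.12 CPM per kilobase against 1.01 for RAB30 in A549 WT B, and 3.75 against 0.871 in HCT116 WT B.

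**Figure D2:**
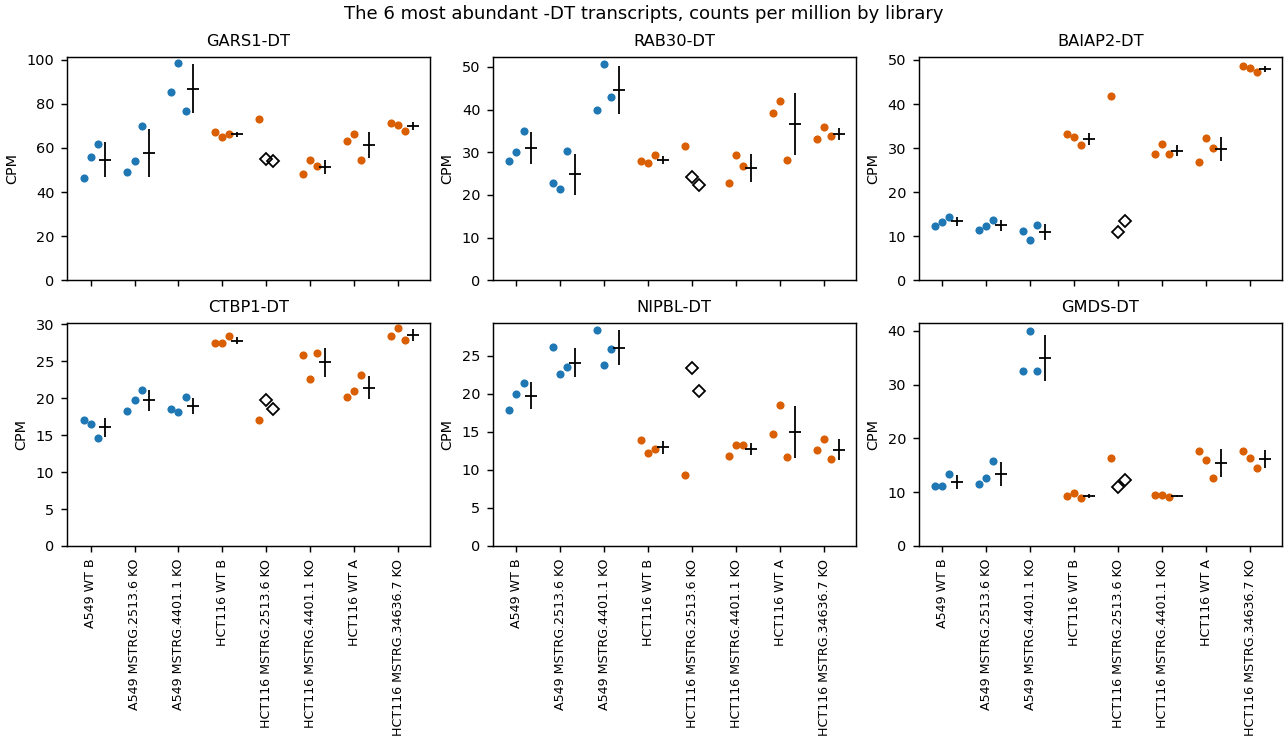
CPM of the 6 most abundant -DT transcripts by library (A549 blue, HCT116 orange, S8 and S9 as open diamonds), with the mean and SD of each group of 3 except HCT116 MSTRG.2513.6 KO. BAIAP2-DT separates the cell lines, and GMDS-DT is highest in A549 MSTRG.4401.1 KO (32.4 to 40.0 CPM).

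The wild types of the cell lines were compared first (A549 WT B against HCT116 WT B). By edgeR's quasi-likelihood test (FDR < 0.1 and |log2(fold change)| > 1), 12 of the 89 -DT transcripts tested were higher in A549 and 19 were lower, or 13.5% and 21.3%, against 17.2% and 18.5% of all genes tested. The other 5 of the 94 were filtered out for low counts. The median log2(fold change) was -0.03 for the -DT transcripts and -0.02 for all genes. Both members of the pair were called in the same direction in 14 pairs (4 higher and 10 lower in A549) and in opposite directions in 1. The -DT transcript alone was called in 16 pairs and the coding gene alone in 3. Across the 89 pairs Spearman's rho of the log2(fold change) values was 0.417, a description over genes that share the same libraries.

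ITGB1-DT (chr10:32958437-33082409, plus strand) is paired with integrin beta 1, an adhesion receptor. Its level was 18.2, 21.9 and 24.3 CPM in A549 WT B and 1.07, 0.78 and 1.13 CPM in HCT116 WT B. ITGB1 itself was at 1498, 1591 and 1453 CPM against 284, 291 and 276 CPM. Neither gene overlapped between the lines, and log2(fold change) was 4.69 ± 0.17 (SE, n = 3 per group) for ITGB1-DT and 2.68 ± 0.08 for ITGB1. These gene bodies overlap by 47356 bases.

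LRRK2-DT (chr12:40186009-40224915, minus strand) is paired with a kinase gene mutated in familial Parkinson's disease. It was at 0.68, 1.18 and 1.40 CPM in A549 WT B and had no count in HCT116 WT B, so it was at least 21.1-fold higher in A549 against 3 counts in each library. LRRK2 was at 47.6, 56.7 and 70.4 CPM against 0.23, 0.12 and 0.13 CPM. The gene bodies of LRRK2-DT and LRRK2 overlap by 28172 bases. LHX1-DT, beside a homeobox gene, and CRIM1-DT, beside a gene for a transmembrane protein, were also higher in A549, as were their partners. Their log2(fold change) values were 3.88 ± 0.71 and 3.64 ± 0.54, with 2.54 ± 0.28 for LHX1 and 4.29 ± 0.08 for CRIM1.

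MAP3K2-DT was higher in A549 (2.27 ± 0.33) while its partner, a kinase, was not called (-0.21 ± 0.84). MAP3K2 was at 0.21, 2.29 and 0.32 CPM in HCT116 WT B, and without the HCT116 WT B library S13 its log2(fold change) was 1.66. RELA-DT, beside the gene for an NF-kappaB subunit, was at 5.83, 4.96 and 6.93 CPM in A549 WT B and 2.57, 2.01 and 3.08 CPM in HCT116 WT B. Its log2(fold change) was 1.47 ± 0.21, whereas that of RELA was -0.01 ± 0.09; RELA-DT falls outside the naming rule and was chosen after its values were seen.

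Among the transcripts lower in A549, MRPS30-DT (chr5:44742420-44808777, minus strand) is paired with a gene for a mitochondrial ribosomal protein. It was at 0.07, 0.02 and 0 CPM in A549 WT B and 2.84, 2.87 and 2.35 CPM in HCT116 WT B. Its log2(fold change) was -6.08 ± 0.58 and that of MRPS30 was -1.13 ± 0.17. PRDM16-DT, beside a transcription factor gene, was at 0.05, 0.12 and 0.10 CPM against 1.70, 1.84 and 1.61 CPM. It differed by -4.00 ± 0.34, close to PRDM16 (-4.15 ± 0.19).

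SH3TC2-DT had no count in A549 WT B and was at least 13.4-fold lower there, and SH3TC2 differed by -5.95 ± 0.30. CCDC15-DT differed by -1.91 ± 0.35 (CCDC15 -1.03 ± 0.18). METTL14-DT, beside the gene for a subunit of the m6A methyltransferase, differed by -1.89 ± 0.53, whereas METTL14 (-0.78 ± 0.13) did not reach the fold threshold.

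The pair called in opposite directions was EPCAM-DT and EPCAM, an epithelial adhesion gene. EPCAM-DT (chr2:47192405-47345074, minus strand) was at 2.99, 2.17 and 2.72 CPM in A549 WT B and 0.86, 1.03 and 0.85 CPM in HCT116 WT B, a log2(fold change) of 1.79 ± 0.23. EPCAM was at 2.48, 2.42 and 3.15 CPM against 184, 186 and 176 CPM (-5.83 ± 0.10). The EPCAM-DT start lies 24322 bases upstream of the canonical EPCAM start.

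**Figure D3:**
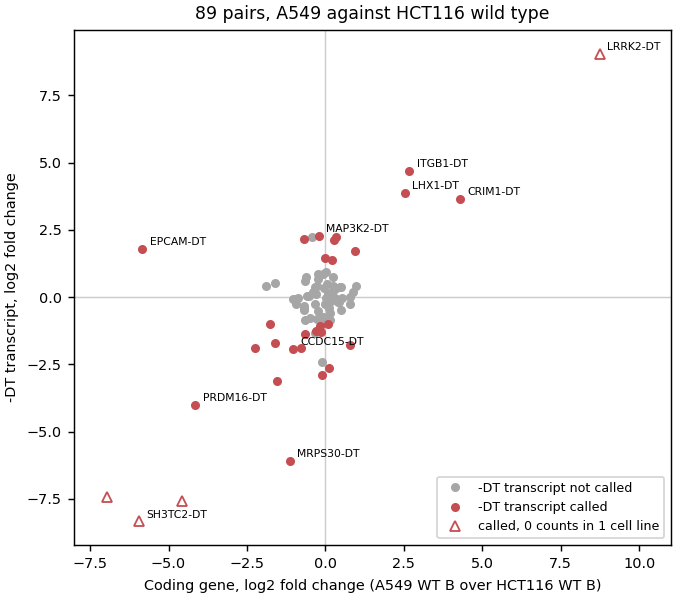
log2(fold change) of each -DT transcript (vertical) against that of its coding gene (horizontal), A549 WT B over HCT116 WT B, for 89 pairs; called -DT transcripts are red, and triangles had no count in 1 line, so that their position depends on the prior count. ITGB1-DT, LHX1-DT, CRIM1-DT and LRRK2-DT lie with their partners at the upper right and EPCAM-DT lies alone at the upper left.

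The levels were then read in the libraries that this contrast did not use, the 6 A549 KO libraries and the other 10 HCT116 libraries without S8 and S9. All A549 libraries were above all HCT116 libraries for 10 of the 94 -DT transcripts and below them for 14, against 10.5% and 18.5% of the 27807 symbols with the same minimum count. Of the 12 transcripts called higher in A549 WT B, 9 were separated in the same direction, and of the 19 called lower, 10 were. The matching share among all called genes is not given here, so these counts say nothing particular to -DT transcripts. For 26 of the 31 called transcripts both S8 and S9 lay on the A549 side of the midpoint between the wild types, and for the other 5 one of them did. CDKN2A-DT, whose locus is deleted in A549, was chosen after its values were seen. It had no count in the 9 A549 libraries and 0.10 to 0.94 CPM in 13 HCT116 libraries, and S8 and S9 had none.

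**Figure D4:**
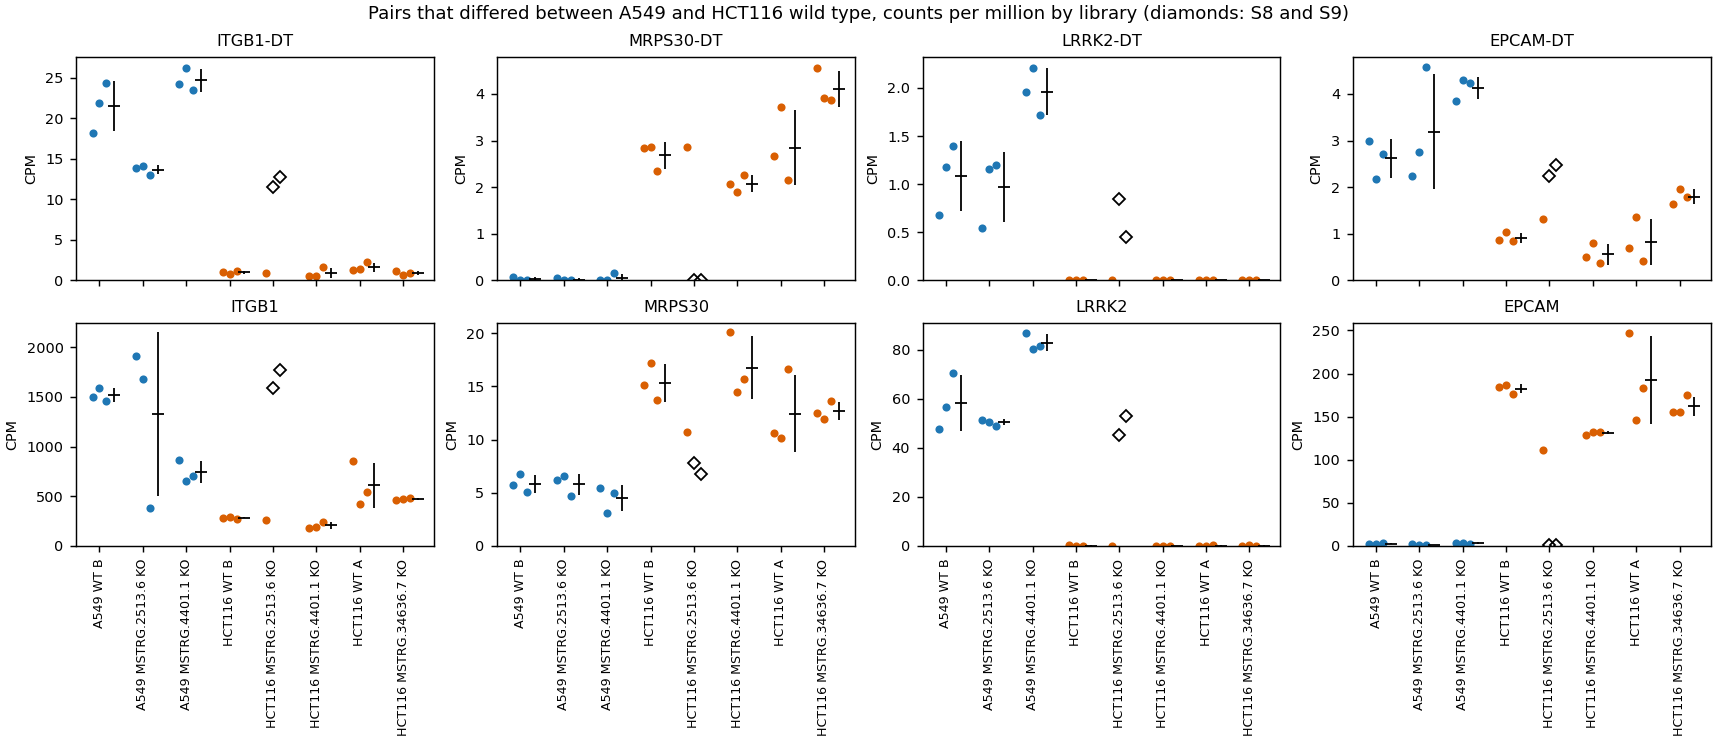
CPM by library of 4 -DT transcripts (upper row) and their coding genes (lower row), with the mean and SD of each group except HCT116 MSTRG.2513.6 KO. S8 and S9, drawn as diamonds, lie with the A549 libraries: ITGB1-DT was at 11.5 and 12.7 CPM there and at 0.94 CPM in S11.

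In A549 MSTRG.4401.1 KO, -DT transcripts rose more often than they fell, as did all genes tested. Of the 79 tested, 13 were higher than in WT B (16.5%) and 1 was lower (1.27%), against 11.1% and 4.32% of all genes tested. Their median log2(fold change) was 0.37, and that of all genes was 0.12. Upper-quartile normalization moved both, to 0.53 and 0.28. It called 14 of the 79 higher and 0 lower, against 15.5% and 3.16% of all genes. The partners had a median of -0.16, or 0.01 under upper-quartile normalization, and 6 of 92 were higher and 3 lower. The partner was called with its -DT transcript in 3 pairs, and the -DT transcript alone in 11. The summed level of all 94 was 470 to 511 CPM in the KO and 319 to 383 CPM in WT B, so the groups did not overlap. DESeq2 called 12 higher and 1 lower.

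GMDS-DT (chr6:2245718-2525976, plus strand) was at 32.4, 40.0 and 32.4 CPM in the KO and 11.2, 11.2 and 13.4 CPM in WT B (log2(fold change) 1.48 ± 0.13). GMDS was below the fold threshold (0.70 ± 0.14). NUP50-DT (chr22:45133020-45163811, minus strand), paired with a nuclear pore gene, was at 17.2, 21.3 and 15.3 CPM against 5.93, 6.46 and 8.08 CPM (1.32 ± 0.17), with -0.37 ± 0.23 for NUP50. KO and WT B libraries did not overlap for either transcript.

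EPB41L4A-DT (chr5:112419583-112420978, plus strand), beside a band 4.1 family gene, was at 4.25, 5.16 and 4.61 CPM in the KO and 0.82, 1.45 and 1.32 CPM in WT B. It rose with its partner, by 1.89 ± 0.26 for EPB41L4A-DT and 1.49 ± 0.14 for EPB41L4A. MMADHC-DT, beside a gene of cobalamin metabolism, was at 2.17, 2.17 and 1.14 CPM against 0.24, 0.52 and 0.53 CPM (2.02 ± 0.41), and MMADHC was lower without reaching the fold threshold (-0.52 ± 0.17). LGALSL-DT rose by 1.52 ± 0.44, whereas LGALSL (-0.16 ± 0.13) was not called.

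AFDN-DT (4.36 ± 1.07) and APCDD1L-DT (3.54 ± 1.08) had the largest fitted changes, both on few reads. The counts of AFDN-DT were 38, 8 and 30 in the KO and 6, 0 and 0 in WT B, and those of APCDD1L-DT were 17, 12 and 29 against 0, 9 and 0. AFDN, an adherens junction scaffold, and APCDD1L were called as well. Adjusted p was 0.12 for APCDD1L-DT without the KO library S25 and 0.10 for LGALSL-DT without the WT B library S21.

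**Figure D5:**
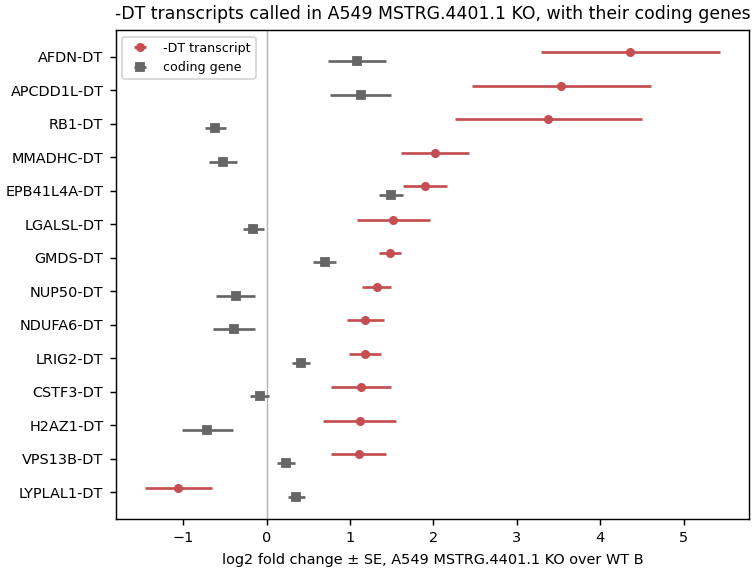
log2(fold change) ± SE in A549 MSTRG.4401.1 KO over WT B for the 14 -DT transcripts called (red circles) and their coding genes (grey squares). All but LYPLAL1-DT lie above 0, and 7 of the coding genes lie below 0.

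Other RNA classes moved in the same libraries, which were also the shallowest. Structured RNAs without poly(A) tails summed to 126568 to 168028 CPM in the KO and 54113 to 99982 CPM in WT B over 7 genes, mitochondrially encoded RNAs to 34509 to 77478 CPM and 19416 to 23310 CPM over 15 genes, and MALAT1 and NEAT1 together to 12397 to 17337 CPM and 7735 to 8514 CPM. Within these sums, 2 of 6 structured RNAs tested (RN7SL2 and RN7SL1), 14 of 15 mitochondrially encoded RNAs and NEAT1 but not MALAT1 were called higher. Replication-dependent histones leaned the other way, with a median log2(fold change) of -0.43 and 1 of 51 called lower. Their sums overlapped, at 4088 to 6767 CPM in the KO and 6182 to 7792 CPM in WT B. The part of these classes in the rise of -DT transcripts was not tested. Of 61 genes of the nuclear exosome and its adaptors, cap binding, Integrator, cleavage and polyadenylation and U1 snRNP, none was called in this comparison. In the test of the difference between A549 and HCT116 in the effect of this KO, at FDR < 0.1 with no fold threshold, 2 of the 61 were more positive in A549 and 30 more negative, against 11.6% and 15.4% of all genes. Under upper-quartile normalization these counts were 3 and 24. Under TMM normalization, 8 of 13 exosome genes, 5 of 8 cap-binding genes and 2 of 3 U1 snRNP genes were more negative. So were 3 of 7 exosome adaptors, 7 of 16 genes of cleavage and polyadenylation and 5 of 14 of Integrator. In the same test 38 of 53 replication-dependent histone genes were more negative, as were 18 of the 94 coding partners, with 13 more positive. Any part of these genes in the levels of -DT transcripts was not tested.

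In HCT116, MSTRG.4401.1 KO gave 0 transcripts higher and 1 lower of 85 tested (1.18% lower), against 0.996% and 1.62% of all genes. FAM111A-DT (chr11:59130133-59143015, minus strand), beside a gene for a nuclear protease, was at 1.74, 1.31 and 2.09 CPM in the KO and 2.94, 3.71 and 3.56 CPM in WT B (-1.002 ± 0.21). It sat at the fold threshold and was lost under upper-quartile normalization (-0.97), under library totals (-0.99) and without the library S15, S13 or S14. The difference of the KO effect between the lines was tested as an interaction at FDR < 0.1. It was called for 18 of 93 -DT transcripts (19.4%), all more positive in A549, against 11.6% of all genes more positive and 15.4% more negative. Under upper-quartile normalization 24 were called, all more positive, against 15.4% and 12.4% of all genes.

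MSTRG.2513.6 KO called no -DT transcript of 78 tested in A549 by edgeR, against 1.13% of all genes higher and 1.79% lower. By the same test, 7 of the 78 and 4300 of 25666 genes had an unadjusted p under 0.05. DESeq2 called 1 -DT transcript and 1027 of 41279 genes. Without the KO library S17 the count by edgeR was 2 and without S19 it was 1, against 760 of 26895 and 791 of 26799 genes. EPB41L4A-DT was at 0.33, 0.17 and 0 CPM in this KO and 0.82, 1.45 and 1.32 CPM in WT B. The groups did not overlap, but the difference (-2.73 ± 0.78) had an adjusted p of 0.118 by edgeR. EPB41L4A was lower by a similar amount and was called (-2.72).

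In HCT116 the same KO also called none of 86 tested by edgeR, against 0.66% of all genes higher and 0.273% lower. By the same test, 14 of the 86 and 5456 of 26374 genes had an unadjusted p under 0.05. DESeq2 called 10 -DT transcripts and 3594 of 43581 genes. The labelled group held S8 and S9. With S11 as the only KO library the KO has no spread of its own, so no count is given. Without S11, 46 -DT transcripts were called, against 10636 of 28577 genes. The interaction between the lines was more positive in A549 for 2 of 94 and more negative for 4, against 2.1% and 7.78% of all genes. It was called for 29 without S11, against 12590 of 30834 genes, and for 0 or 1 without any other single library.

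MSTRG.34636.7 KO in HCT116 called none of 91 by edgeR, against 0.729% of all genes higher and 0.607% lower. By the same test, 14 of the 91 and 4319 of 28816 genes had an unadjusted p under 0.05. DESeq2 called 0 -DT transcripts and 885 of 43157 genes. Without the WT A library 2A the count by edgeR was 3, and without 1A it was 1, against 746 of 30726 and 415 of 30963 genes. BAIAP2-DT was at 48.6, 48.1 and 47.2 CPM in the KO and 26.9, 32.3 and 30.1 CPM in WT A (0.68 ± 0.12, adjusted p = 0.055 by edgeR), below the fold threshold. For BAIAP2 the value was -0.04.

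The HCT116 wild types differed in 0 -DT transcripts higher and 1 lower in WT A of 86 tested (1.16% lower), against 3.16% and 3.9% of all genes. NUP50-DT was at 2.11, 1.89 and 1.83 CPM in WT A and 8.85, 8.37 and 7.62 CPM in WT B (-2.102 ± 0.19, adjusted p = 0.000325 by edgeR). In MSTRG.34636.7 KO, whose libraries carry the same numbering as WT A, it was at 2.52, 2.095 and 2.35 CPM. NUP50 was not called (-0.25 ± 0.31). GMDS differed the other way from GMDS-DT: GMDS-DT was at 17.7, 15.97 and 12.6 CPM in WT A and 9.27, 9.77 and 8.92 CPM in WT B, and GMDS was at 2.67, 2.18 and 1.53 CPM against 18.7, 17.3 and 16.7 CPM. GMDS was called (-3.07 ± 0.23) and GMDS-DT was below the fold threshold (0.71 ± 0.17). Among the partners 3 of 93 were higher in WT A and 7 were lower, all 10 without a call of their -DT transcript. Of the 61 genes of RNA decay and termination 1 was higher and 8 were lower, among them INTS5 (-3.62 ± 0.32) of Integrator and CSTF3 (-3.30 ± 0.15), itself the partner of CSTF3-DT. Wild type and numbering cannot be told apart here. No -DT transcript was called in more than 1 of the 5 KO comparisons. Most of these comparisons called none and HCT116 MSTRG.4401.1 KO called 1, so there was little that could recur.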

How the data were processed

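RNA-seq of 24 libraries, depleted of ribosomal RNA, was analysed. The authors trimmed reads with Trim Galore 0.6.6, checked them with FastQC 0.11.9, aligned them to hg38 with HISAT2 2.2.1 and ran StringTie for gene quantification; the values they deposited are counts, whole numbers for each symbol and library, unnormalized and unpooled. The annotation release, the use of the strand and the step to whole counts are not given in the sources used here. The libraries numbered 1A to 3A listed 3 further symbols, which were left out.

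Each comparison was fitted on all genes with edgeR 4.0.16 (R 4.3.3, limma 3.58.1), with TMM, filterByExpr and the quasi-likelihood test, and Benjamini-Hochberg adjustment. Genes were called at FDR < 0.1 and |log2(fold change)| > 1, and interactions at FDR < 0.1. With 3 against 3 libraries an exact permutation test cannot go below p = 0.1. CPM is relative to the library total. SE is the coefficient divided by the root of F. A gene at 0 in a group was given a bound against 3 counts per library. These bounds cover counting error only, as reads lacking molecular identifiers can be copies of 1 molecule.

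Per comparison, the 5 largest changes in each direction were named among called -DT transcripts with no overlap between groups and at least 0.5 CPM in the higher group, along with the 6 most abundant transcripts, pairs called in opposite directions and the transcripts beside the minimum. The transcripts, gene lists and rules were chosen with earlier results of these data known. Alternatives were DESeq2 1.42.0, upper-quartile normalization, library totals, no filter, FDR < 0.05, no fold threshold, the other wild type, a replicate block and each library left out. The fits were tested on simulated counts. Positions and starts came from GENCODE v44 and promoter windows from the hg38 sequence.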

Additional observations from a re-analysis of the deposited data

Results flagged for a closer look

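The effect of MSTRG.4401.1 KO differed between A549 and HCT116, by edgeR's interaction test, for 8 of the -DT transcripts named here. Of all -DT transcripts tested it was called for 18 of 93, against 11.6% of all genes more positive and 15.4% more negative. AFDN-DT and EPB41L4A-DT were named for their rise in these A549 libraries, which favours a positive difference. The others were named from values that include libraries of this test, so the 8 are a description. On the log2 scale the difference (A549 minus HCT116) was 3.47 ± 1.29 (SE) for AFDN-DT, 2.198 ± 0.50 for EPB41L4A-DT, 1.45 ± 0.15 for GMDS-DT, 1.26 ± 0.38 for EPCAM-DT, 1.10 ± 0.19 for NUP50-DT, 0.93 ± 0.12 for GARS1-DT, 0.926 ± 0.29 for RELA-DT and 0.52 ± 0.15 for RAB30-DT. The adjusted p-values by edgeR ranged from 7.8e-05 (GMDS-DT) to 0.0741 (AFDN-DT). GARS1-DT was at 85.4, 98.5 and 76.5 CPM in the A549 KO against 46.2, 55.8 and 62.0 CPM in A549 WT B, and at 48.2, 54.6 and 51.6 CPM in the HCT116 KO against 67.1, 64.8 and 66.4 CPM in HCT116 WT B.

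The effect of MSTRG.2513.6 KO differed between the lines for 3 named -DT transcripts. The difference was -3.99 ± 1.00 for ITGB1-DT, and the fitted values for LRRK2-DT (-7.78) and SH3TC2-DT (6.55) depend on the prior count, because a group of the contrast had no count. These are transcripts that separate the cell lines, and the HCT116 group holds S8 and S9. With S8 and S9 left out none of the 3 was called. The difference for ITGB1-DT was then -0.48 ± 0.29 (adjusted p = 0.406 by edgeR), that for SH3TC2-DT had an adjusted p of 0.142 by edgeR, and LRRK2-DT had no count in any HCT116 library left in the test.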

How the results depend on the processing

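The number of -DT transcripts called was recomputed under each alternative. For A549 MSTRG.4401.1 KO (14) it was 23 of 79 with no fold threshold, a smaller share than the 10925 of 24979 genes called. With a library left out it was 10 to 13, against 2960 to 4124 genes. For the cell lines (31) it was 51 of 89 with no fold threshold, against 17549 of 27882 genes. With a library left out it was 28 to 31, against 10129 to 10568 genes. For A549 MSTRG.2513.6 KO (0) it was 1 by DESeq2 and 2 with no fold threshold, against 1027 of 41279 and 1531 of 25666 genes. With a library left out it was 0 to 2, against 451 to 791 genes. For HCT116 MSTRG.2513.6 KO (0) it was 10 by DESeq2, against 3594 of 43581 genes, and 2 against WT A, where 900 of 26497 genes were called. With a library left out it was 0 to 46, against 0 to 10636 genes. For HCT116 MSTRG.4401.1 KO (1) it was 2 by DESeq2, against 581 of 42203 genes, and 0 by upper-quartile normalization and by library totals. It was 5 with no fold threshold and 4 against WT A, where 4336 of 26615 and 2743 of 26786 genes were called. With a library left out it was 0 to 3, against 541 to 666 genes. For MSTRG.34636.7 KO (0) it was 1 with no fold threshold and 5 against WT B, where 619 of 28816 and 4059 of 27971 genes were called. With a library left out it was 0 to 3, against 80 to 746 genes. For WT A against WT B (1) it was 2 by upper-quartile normalization and 3 with no fold threshold, against 1941 and 3348 of 27280 genes. With a library left out it was 1 to 4, against 1535 to 2191 genes. The interaction counts with a library left out were 12 to 18 (MSTRG.4401.1) and 0 to 29 (MSTRG.2513.6). Of all genes, 6443 to 9099 and 360 to 12590 were called. The cause of these changes was not tested. With the replicate block the counts were 0 for MSTRG.34636.7 KO and 27 for the cell lines; the numbers did not pair the libraries, since the deviations of same-numbered libraries correlated at r = 0.0091 to 0.064 and at -0.157 to -0.0143. MAP3K2 changed direction between the cell lines when 1 library was left out (-0.68 to 1.66, the latter without the HCT116 WT B library S13). Of the values of named -DT transcripts under the alternatives, 265 kept their direction and call and 13 kept their direction only. Transcripts near 1 CPM are limited by counts.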
